A study of Homo sapiens with 9 samples.

Results

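HCCLM3 is an established human hepatocellular carcinoma line that was selected for high metastatic capacity, and the data described here are the poly(A) RNA of its control cultures. The control group was taken by its label, a non-targeting siRNA, and it holds 3 of the 9 libraries of the series. The other 6 libraries come from the same line after siRNA against UXS1 or against MRPL42, and they appear below only as a range beside the controls. All groups share the line and the transfection, so the values describe transfected cells of 1 line, and the labels used here give no dose and no time after transfection. The control libraries are called a, b and c after the deposited columns. No label ties these letters to the repeat numbers of the samples, and nothing says whether the repeats came from separate cultures, so their spread may be technical. Library c stood apart: in 412 of the 10434 genes with 5 TPM or more it lay over 2-fold from both a and b (3.95%), and values are therefore given per library in the order a, b, c.

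Hepatocytes are known for secreting most plasma proteins, for detoxification by cytochromes P450 and conjugating enzymes, for bile acid and urea synthesis, and for the control of blood glucose. A circuit of transcription factors that includes HNF4A, the FOXA factors and CEBPA is known to hold this program in place. Liver cancers keep the program to very different degrees and can take on fetal, biliary or intestinal genes. Levels are given as TPM, a share of all transcripts corrected for gene length, so that genes can be compared within a library. A gene was called expressed at a TPM of 1 or more in all 3 control libraries.

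The fibrinogen genes lie side by side and were low together in library c, and so their promoters are shown. Beside them stand those of 3 other plasma protein genes, which were picked as examples and not by a rule. The sequences are the 250 bases before the RefSeq transcription start (GRCh38.p14), read 5′ to 3′ on the gene's strand. Capitals mark the letters GTTAAT or, for the other strand, ATTAAC, a short motif known from promoters of liver genes. ALB encodes albumin (chr4:73404037-73404286, plus strand), APOH encodes beta-2-glycoprotein I (chr17:66229416-66229665, minus strand) and F2 encodes prothrombin (chr11:46718963-46719212, plus strand). The fibrinogen chains are encoded by FGA (chr4:154590743-154590992, minus strand), FGB (chr4:154562730-154562979, plus strand, the first of 2 windows listed) and FGG (chr4:154612657-154612906, minus strand).
ALB: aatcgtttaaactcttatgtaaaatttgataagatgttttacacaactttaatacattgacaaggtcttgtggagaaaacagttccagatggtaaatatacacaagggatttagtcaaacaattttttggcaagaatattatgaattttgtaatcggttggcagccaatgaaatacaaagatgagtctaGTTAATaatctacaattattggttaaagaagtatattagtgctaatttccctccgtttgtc
APOH: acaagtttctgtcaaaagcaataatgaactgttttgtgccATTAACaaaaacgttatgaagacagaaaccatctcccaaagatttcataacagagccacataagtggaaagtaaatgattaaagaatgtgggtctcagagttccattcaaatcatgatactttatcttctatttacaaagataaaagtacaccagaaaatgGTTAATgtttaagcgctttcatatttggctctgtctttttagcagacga
F2: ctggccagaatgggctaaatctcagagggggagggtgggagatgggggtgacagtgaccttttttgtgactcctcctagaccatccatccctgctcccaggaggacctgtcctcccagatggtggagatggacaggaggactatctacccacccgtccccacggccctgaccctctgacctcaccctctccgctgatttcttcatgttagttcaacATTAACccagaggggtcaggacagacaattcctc
FGA: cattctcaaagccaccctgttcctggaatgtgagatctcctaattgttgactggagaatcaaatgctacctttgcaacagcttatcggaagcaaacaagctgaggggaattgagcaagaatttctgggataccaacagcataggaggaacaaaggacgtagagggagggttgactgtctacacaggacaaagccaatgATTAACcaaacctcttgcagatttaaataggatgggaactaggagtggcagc
FGB: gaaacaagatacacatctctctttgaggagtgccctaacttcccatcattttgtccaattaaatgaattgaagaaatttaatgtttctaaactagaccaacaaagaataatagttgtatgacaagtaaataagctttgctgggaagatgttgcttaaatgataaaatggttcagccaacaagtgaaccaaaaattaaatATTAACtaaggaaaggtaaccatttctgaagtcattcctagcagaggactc
FGG: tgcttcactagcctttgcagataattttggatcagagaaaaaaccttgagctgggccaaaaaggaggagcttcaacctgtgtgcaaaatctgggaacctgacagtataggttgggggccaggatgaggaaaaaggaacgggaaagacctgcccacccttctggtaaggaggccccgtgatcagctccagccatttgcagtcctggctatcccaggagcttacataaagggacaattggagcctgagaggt
The motif stood once upstream of ALB, at bases -61 to -56, of FGA, at -52 to -47, of FGB, at -51 to -46, and of F2, at -34 to -29. APOH held it at -210 to -205 and again at -49 to -44, and the window of FGG did not hold these letters. Over windows of 300 bases that also include 50 bases after the start, 2417 of 35116 RefSeq windows held the motif, or 6.88%. Among plasma protein genes with a window, 21 of 72 held it in at least 1 window (29.2%), against 2259 of all 27305 symbols (8.27%). A match is a description of the letters and not a bound site.

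Of the 20379 genes listed, 11508 were expressed by this rule, which is 56.5%. TPM stayed under 1 in all 3 libraries for 8194 genes, of which 4717 were listed at 0 throughout, and 677 genes lay on both sides of the limit. The count per library was 11876 in a, 11872 in b and 11799 in c. Of the 1657 genes that the deposited table assigns to a transcription factor family, 988 were expressed. The mean TPM reached 10 for 8756 genes, 100 for 1781 and 1000 for 122. The 100 most abundant genes held 30.01% of all TPM in library a, 30.4% in b and 32.8% in c (31.1% ± 1.48, SD, n = 3), and the first 10 held 11.1% ± 0.90. The list is nearly all protein coding, so abundant non-coding RNAs were not analysed here.

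Transcripts of the mitochondrial genome and of ferritin stood at the top. MT-CO1, which encodes a core subunit of cytochrome c oxidase, was listed at 17459, 18761 and 23076 TPM in a, b and c. It was the most abundant gene in every control library, and library c held the highest value. The 13 mitochondrially encoded mRNAs together took 7.57%, 8.25% and 8.91% of TPM. Of the 30 most abundant genes, 9 were of this class: MT-CO1, MT-CO2, MT-CO3, MT-ND1, MT-ND2, MT-ND4, MT-ND4L, MT-ATP6 and MT-CYB. The iron store ferritin is built from a light and a heavy chain. Its light chain gene FTL had 16610 ± 379 TPM (SD, n = 3) and its heavy chain gene FTH1 had 12505 ± 576 TPM. The 2 genes together held 2.91% ± 0.10 of TPM, a share with little spread over the libraries.

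Cytosolic ribosomal proteins took 8.50%, 8.31% and 7.11% of TPM, and 82 of 84 genes matched by their symbols were expressed. RPS2, RPL10 and RPLP0 were the members among the first 30. Their partner in translation, the elongation factor EEF1A1, had 7538 ± 200 TPM. Housekeeping genes of other kinds with little spread were ACTB, cytoplasmic actin, with 6188 ± 203 TPM and GAPDH, a glycolytic enzyme, with 5067 ± 73.5 TPM. PPIA, a prolyl isomerase, had 3467 ± 207 TPM.

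Simple keratins and calcium binding proteins of the membrane made up a further abundant class. The keratin pair of simple epithelia was high, with KRT8 at 5321 ± 582 TPM and KRT18 at 2153 ± 195 TPM. Among 55 keratin genes, 8 were expressed and 45 stayed under 1 in all 3 libraries. Calcium binding S100 proteins took 1.20%, 1.18% and 1.74% of TPM. S100A10, the partner of annexin A2 at the membrane, was listed at 3372, 3279 and 5190 TPM, and its partner gene ANXA2 had 2575 ± 136 TPM. S100A4, known from motile and metastatic cells, was listed at 3358, 3242 and 4473 TPM. S100A6 followed with 2549, 2419 and 4138 TPM. For all 3 of these S100 genes library c lay above a and b.

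Of the targets known for the antioxidant factor NRF2, several reached the first 30. AKR1B10, an aldo-keto reductase that is often high in liver cancer, had 3736 ± 354 TPM. NQO1, a quinone reductase, had 3696 ± 221 TPM, and TXNRD1, thioredoxin reductase, had 3226 ± 279 TPM. In the list of stress genes, SRXN1 lay between 506 and 522 TPM, GCLM between 271 and 278 and HMOX1 between 320 and 334 over the 3 libraries. The related AKR1B1, next to AKR1B10 on chromosome 7, was listed at 1076, 1113 and 950 TPM. Aldo-keto reductases as a family took 0.92% ± 0.04 of TPM, with 11 of 13 genes expressed.

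**Figure D1:**
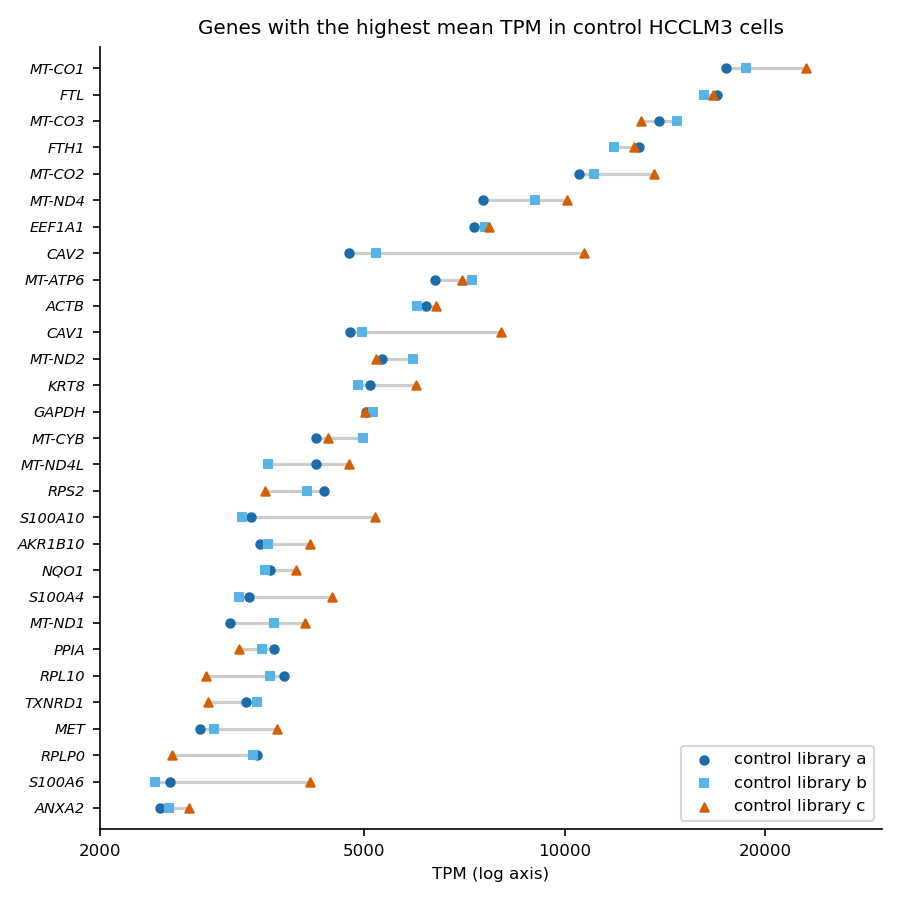
TPM of 29 of the 30 genes with the highest mean over the control libraries, on a log axis, with 1 point per library and a grey line from the lowest to the highest. MT-CO1 reached 23076 TPM in library c, and CAV2, CAV1, S100A10 and S100A6 show the widest gaps between library c and the other two.

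The caveolin genes and the receptor gene of hepatocyte growth factor lie next to each other and were all among the 30 most abundant. CAV2 and CAV1 encode the proteins that shape caveolae, small pits of the plasma membrane, and MET encodes the receptor tyrosine kinase for HGF. CAV2 (chr7:116287380-116508541, GRCh38, GENCODE 29) was listed at 4745, 5202 and 10711 TPM. CAV1 (chr7:116524785-116561184) was listed at 4755, 4956 and 8032 TPM, and MET (chr7:116672390-116798386) at 2829, 2972 and 3696 TPM. In each of the 3 genes library c was highest, and libraries a and b lay close together. The ligand gene HGF stayed between 0.165 and 0.332 TPM.

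Levels were lower on both sides of this run. On one side TES, a focal adhesion protein, was listed at 1114, 1111 and 755 TPM, lowest in library c. Beyond TES, TFEC stood between 2.96 and 6.60 TPM and MDFIC between 271 and 279 TPM. On the other side CAPZA2, which caps actin filaments, was listed at 224, 239 and 298 TPM and ST7 between 23.3 and 27.4 TPM. The next 4 genes in the table, WNT2, ASZ1, CFTR and CTTNBP2, were at 0 or under 1 TPM. Among genes next to each other with a mean of 1000 TPM or more, the longest runs had 3 members: this one, and ATP5F1B, PTGES3 and NACA on chromosome 12. DNA copy number was not measured here.

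**Figure D2:**
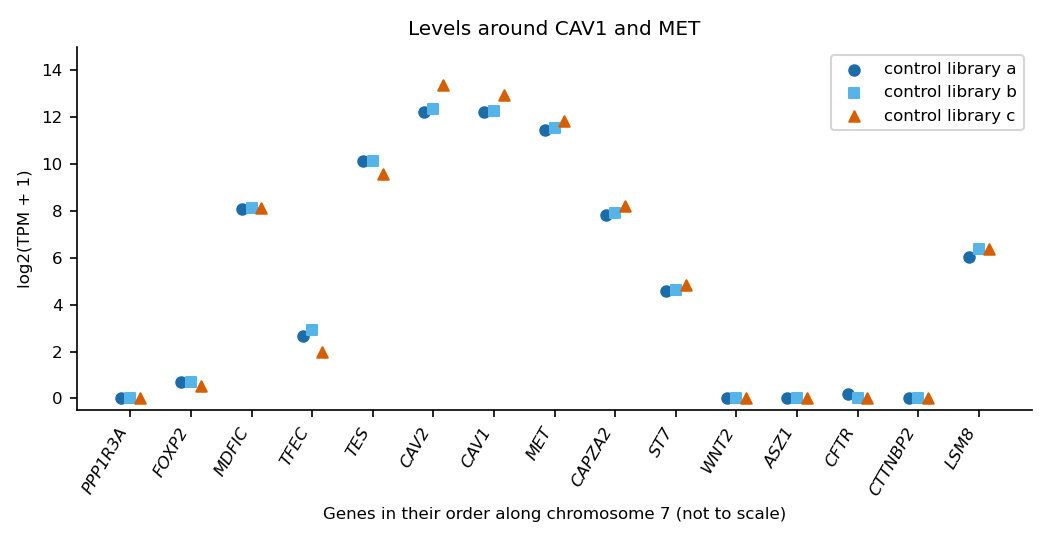
Levels as log2(TPM + 1) of 15 genes in their order along chromosome 7 around CAV1, with 1 point per control library and distances not to scale. TES, CAV2, CAV1, MET and CAPZA2 form a block from 224 TPM upwards, with WNT2, ASZ1, CFTR and CTTNBP2 near 0 on one side.

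Plasma protein genes, the most specific output of hepatocytes, were low or absent for the greater part. Of 104 such genes 36 were expressed, or 34.6% beside 56.5% of all genes listed, and 50 stayed under 1 TPM in all 3 libraries. Without library c the count was 46. In bulk RNA, fewer cells that make a transcript and less of it per cell cannot be told apart.

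ALB was listed at 13.2, 14.9 and 5.66 TPM, lowest in c. It is known as a dominant transcript of normal liver. Of the other hepatocyte markers, APOA1, the main protein of high density lipoprotein, lay between 0.235 and 0.473 TPM. TTR, a thyroid hormone carrier, lay between 0.183 and 1.04 TPM, and SERPINA1, the elastase inhibitor of plasma, was listed at 4.65, 4.41 and 2.04 TPM. APOB, the scaffold of low density lipoprotein, was listed at 12.2, 11.7 and 7.79 TPM. The carriers HPX, GC, SERPINA7, ITIH1 and HP were at 0 or under 0.1 TPM in all 3 libraries.

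A smaller set of plasma protein genes was kept at higher levels. APOH was listed at 98.7, 85.9 and 101 TPM, with library c highest by a small margin. SERPINF1, also called PEDF, stood at 46.9, 42.1 and 37.3 TPM, and the clotting cofactor F5 at 47.2, 48.7 and 25.3 TPM. APOC1, a small apolipoprotein, was listed at 52.0, 38.8 and 24.0 TPM. C5 (17.1 to 18.9 TPM) and PON3 (16.5 to 19.4 TPM) differed little between libraries. The vitamin A carrier RBP4 was listed at 15.4, 13.2 and 27.1 TPM.

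Other members were well expressed in libraries a and b but low in c, and the fibrinogen cluster was the clearest case. FGA was listed at 67.2, 74.7 and 7.04 TPM, FGB at 35.5, 33.6 and 2.43 TPM, and FGG at 22.8 and 28.0 TPM with a listed 0 in c. These 3 genes lie side by side on chromosome 4 (chr4:154562956-154571086 for FGB, chr4:154583126-154590766 for FGA and chr4:154604134-154612967 for FGG). In the 6 knockdown libraries FGA lay between 58.8 and 73.8 TPM, FGB between 30.3 and 39.5 and FGG between 14.3 and 27.5, so library c stood below all 8 others for each of them. F2 followed with 14.1, 13.2 and 1.22 TPM. The iron carrier TF was listed at 45.7, 38.1 and 1.24 TPM, the hyaluronan binding ITIH2 at 131, 135 and 17.4 TPM, and the copper oxidase CP at 38.8, 42.9 and 9.62 TPM. Further genes over 2-fold below in c were AGT, the precursor of angiotensin (17.2, 16.3 and 4.14 TPM), the inhibitor SERPINA3 (5.59, 6.26 and 0.108 TPM) and the cortisol carrier SERPINA6 (4.75, 5.12 and 0.214 TPM). The hepatic lipase LIPC (11.7, 11.9 and 2.53 TPM) and the lipase inhibitor ANGPTL4 (33.8, 32.9 and 7.91 TPM) showed the same order. So did the first proteases of the complement cascade, C1R (69.2, 72.6 and 16.6 TPM) and C1S (80.9, 81.2 and 36.0 TPM), and the complement inhibitor C4BPA (26.2, 26.2 and 12.5 TPM).

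Of the plasma protein genes, 32 had 5 TPM or more in at least 1 control library. Library c was over 2-fold below both others in 17 of them and above in 1, where 2.01% and 1.94% of all such genes were called in the same directions. The median difference of c from the mean of a and b was -1.08 on the log2(TPM + 1) scale, against -0.07 over all genes with 5 TPM. By list, 7 of 10 carriers and inhibitors were called lower, 4 of 7 coagulation factors, 4 of 8 complement and acute phase genes and 2 of 7 apolipoproteins. The acute phase genes CRP, LBP and SAA4 were listed at 0 in every control library.

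**Figure D3:**
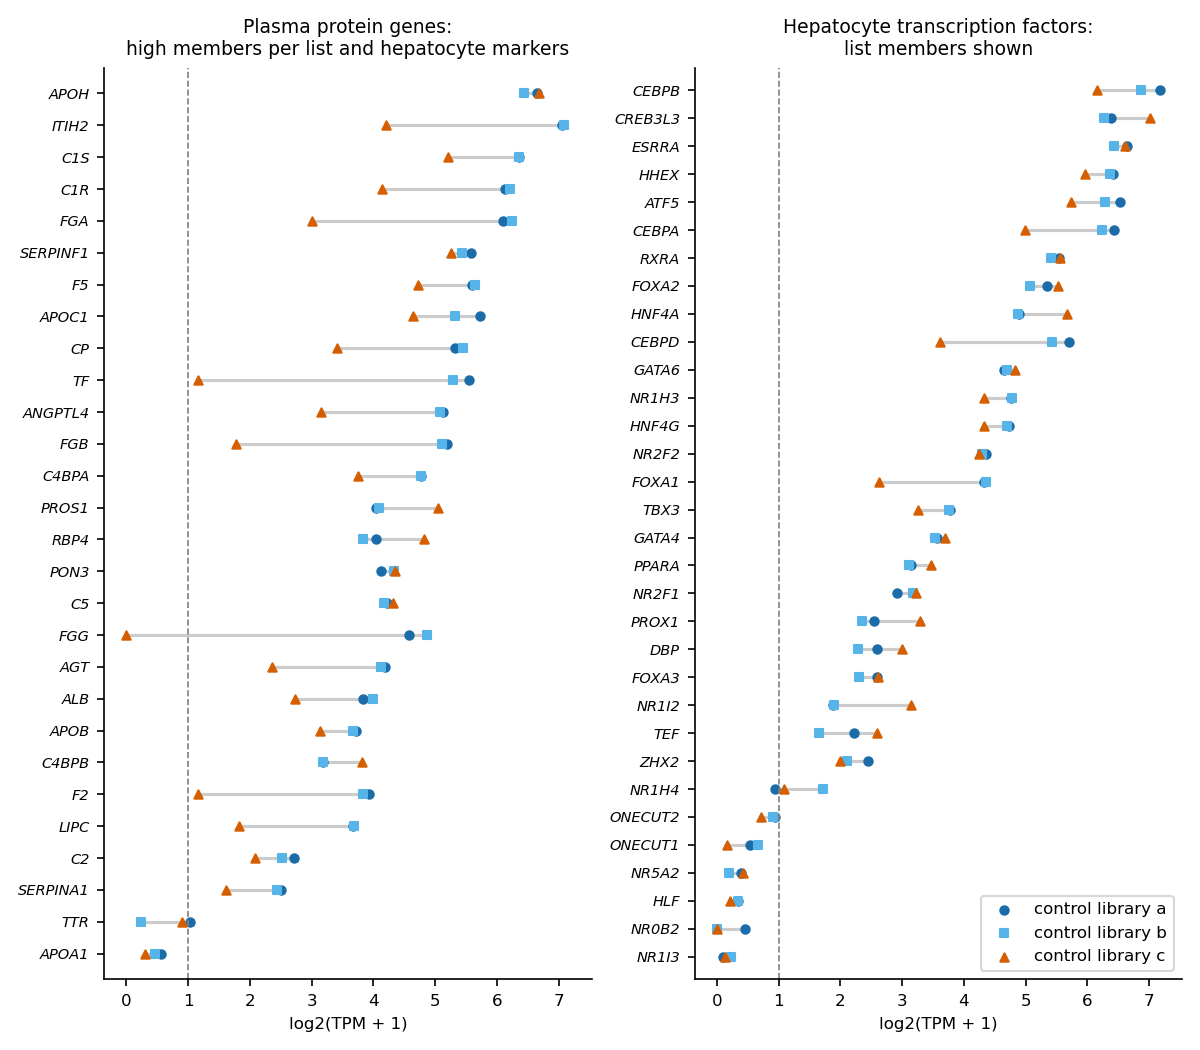
Levels as log2(TPM + 1) of plasma protein genes (left) and of 32 of the 34 hepatocyte transcription factors (right), with 1 point per control library, a grey line over their range and a dashed line at a TPM of 1. FGG, FGB, TF and ITIH2 spread widely because library c is low, while APOH and RXRA differ little.

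In contrast, the transcription factors of hepatocytes were largely present. Of 34 listed, 26 were expressed, or 76.5% beside 56.5% of all genes, and the number was 26 without library c too. HNF4A, the central hepatocyte nuclear receptor, was listed at 28.7, 28.4 and 50.1 TPM, highest in c. FOXA2, a pioneer factor, stood at 39.8, 32.5 and 45.0 TPM. The endoderm factors GATA4 (10.6 to 11.9 TPM) and GATA6 (24.0 to 27.3 TPM) differed little between libraries. The most abundant factors beside the C/EBP family were CREB3L3, an activator of liver secretory genes (82.0, 76.4 and 128 TPM), and the orphan receptor ESRRA (99.0, 85.5 and 96.2 TPM). HHEX, an early liver bud factor, was listed at 83.9, 81.8 and 61.2 TPM.

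The C/EBP factors were lower in library c, with CEBPA at 85.3, 74.3 and 30.6 TPM, CEBPB at 143, 115 and 70.4 TPM and CEBPD at 50.8, 41.8 and 11.2 TPM. FOXA1 was lower there as well, with 18.98, 19.53 and 5.14 TPM. NR1I2, the xenobiotic receptor PXR, was higher, with 2.68, 2.74 and 7.80 TPM. Of these, CEBPA, CEBPD and FOXA1 were over 2-fold lower and NR1I2 over 2-fold higher, which makes 4 of 25 factors with 5 TPM, and the list's median difference was 0.07. Among the members under 1 TPM in all 3 libraries were ONECUT1, ONECUT2, NR1I3, NR0B2, NR5A2 and HLF. NR0B2 is the bile acid induced repressor SHP.

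Metabolic genes of the liver gave a mixed picture. Of 210 such genes 133 were expressed (63.3%, not far from the 56.5% of all genes), and 68 stayed under 1 TPM in all 3 libraries. Aldehyde and ester metabolism was high. ALDH1A1, a retinal dehydrogenase, was listed at 2400, 2482 and 2595 TPM, and ALDH3A1, which oxidises aromatic aldehydes, at 1953, 1839 and 2553 TPM. CES1, a liver carboxylesterase, stood at 1007, 1004 and 1173 TPM, and EPHX1, an epoxide hydrolase, at 544, 548 and 392 TPM.

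Several P450 genes typical of adult liver were at or near 0. CYP3A4 lay between 0.225 and 0.677 TPM, CYP2E1 between 0.067 and 0.232, CYP1A2 was at 0 in a and b, and CYP4A11 was at 0 in all 3. CYP3A5 (46.3, 49.3 and 74.9 TPM), CYP2S1 (55.5, 53.3 and 77.7 TPM) and CYP4F3 (21.74, 21.85 and 25.02 TPM) were expressed. Of the other members of the CYP1 family, which the aryl hydrocarbon receptor is known to induce, CYP1A1 was listed at 14.2, 18.3 and 89.6 TPM and CYP1B1 at 46.7, 49.8 and 232 TPM, both highest in c, where CYP1A2 had 0.067 TPM. ADH1C, an alcohol dehydrogenase, was listed at 38.5, 36.1 and 0 TPM, while the 6 knockdown libraries held between 27.0 and 41.4 TPM. ADH1A and ADH1B were at 0 in every control library. CYP2B6 (8.92, 8.26 and 2.78 TPM), ADH6 (5.95, 5.97 and 1.47 TPM) and the aldehyde oxidase AOX1 (5.04, 4.60 and 1.35 TPM) were also over 2-fold lower in c. In all, 20 of 38 phase 1 genes were expressed (52.6%, near the 56.5% of all genes). Of 21 with 5 TPM, 4 were over 2-fold lower in c and 2 higher, beside 2.01% and 1.94% over all genes.

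Conjugation enzymes were better kept, with 26 of 35 expressed (74.3%, beside 56.5% of all genes). The membrane glutathione transferase MGST1 was listed at 1449, 1583 and 1754 TPM. UGT1A1, which conjugates bilirubin, stood at 238, 231 and 206 TPM and UGT1A6 at 153, 152 and 154 TPM. GSTP1, a cytosolic glutathione transferase, lay between 165 and 173 TPM. Of 19 members with 5 TPM, the 1 over 2-fold apart in c was UGT2A3 (13.2, 13.1 and 41.7 TPM). That is 5.26%, near the 3.95% of all such genes. The transcripts of the UGT1A genes share their last exons, so the split between them is uncertain. UGT2B4, SULT1E1, SULT2A1, GSTM1, NAT2 and GLYAT were listed at 0.

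In bile acid metabolism 16 of 31 genes were expressed (51.6%, near the 56.5% of all genes). CYP7A1, the rate-limiting enzyme of the classic pathway, was at 0 in a and b and 0.037 TPM in c, and CYP8B1 and CYP7B1 were at 0. CYP27A1, which opens the alternative pathway, was listed at 153, 153 and 90.0 TPM. The canalicular pump ABCC2 stood at 193, 201 and 249 TPM, while the bile salt pump ABCB11 lay between 0.537 and 2.07 TPM. The basolateral uptake carriers SLC10A1, SLCO1B1, SLCO1B3 and SLC22A7 were all under 1 TPM, while SLCO2B1, another such carrier, was listed at 10.9, 11.6 and 16.6 TPM. BAAT, which conjugates bile acids with amino acids, was listed at 106, 102 and 166 TPM. The basolateral pump ABCC3 lay between 97.7 and 114 TPM. ABCG2, an efflux pump for many drugs, was over 2-fold higher in c, with 72.9, 70.3 and 179 TPM. It was the 1 called of 14 members with 5 TPM (7.14%, beside 3.95% of all such genes).

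Steps of the urea cycle differed in level. The mitochondrial enzymes CPS1, between 0 and 0.044 TPM, and OTC, listed at 0, were at or near 0, and so was the cytosolic arginase ARG1, between 0 and 0.201 TPM. The other cytosolic enzymes of the cycle were expressed, with ASS1 at 5.76, 6.93 and 9.45 TPM and ASL at 94.7, 92.5 and 69.7 TPM. Among the amino acid enzymes, 19 of 38 genes of the list were expressed. MAT2A, which makes S-adenosylmethionine outside adult liver, was listed at 328, 344 and 419 TPM, and its liver counterpart MAT1A did not exceed 0.283 TPM. HGD, of tyrosine breakdown, was listed at 127, 138 and 95.6 TPM, and HPD of the same path at 20.7, 20.6 and 3.35 TPM. ASNS, which makes asparagine, stood at 292, 314 and 106 TPM.

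Glycolytic isozymes that most cells use were abundant, and those typical of liver were not. PKM (2531, 2424 and 2623 TPM), ALDOA (1728, 1739 and 1805 TPM) and ENO1 (2176, 2221 and 2073 TPM) were abundant. The liver isozymes PKLR and GYS2 did not exceed 0.165 TPM. Of gluconeogenesis, G6PC1 and PCK1 did not exceed 0.027 TPM, and FBP1 lay between 2.14 and 3.09 TPM. HK1 stood at 107, 104 and 86.0 TPM and HK2 under 1 TPM. SLC2A1, the glucose carrier of most cells, was listed at 104, 94.6 and 383 TPM, so library c held about 3.86 times the mean of the others, and the 6 knockdown libraries lay between 79.7 and 98.6 TPM. The liver carrier SLC2A2 did not exceed 0.1 TPM.

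Lipid genes were expressed in 31 of 36 cases (86.1%, beside 56.5% of all genes). Of 30 with 5 TPM, 4 were over 2-fold lower in c and 1 higher, beside 2.01% and 1.94% over all genes. The fatty acid carrier FABP1, among the most abundant transcripts of normal hepatocytes, was listed at 0. The lipogenic genes were lower in c: SREBF1, their activator, stood at 78.9, 66.4 and 23.1 TPM, FASN at 378, 342 and 148 TPM and SCD at 365, 370 and 144 TPM. ACSL1, which activates fatty acids, stood at 127, 133 and 50.8 TPM. PLIN2, on lipid droplets, was listed at 146, 154 and 139 TPM.

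Markers used for liver cancer were mixed too, with 25 of 41 oncofetal and progenitor genes expressed (61.0%, near the 56.5% of all genes). AFP, the fetal albumin used as a serum marker, lay between 1.42 and 1.72 TPM, and GPC3, DLK1, LIN28A and PROM1 were listed at 0. EPCAM stayed under 1 TPM. Present instead were KRT19 (536, 512 and 785 TPM), SPP1 or osteopontin (630, 663 and 472 TPM), MDK or midkine (938, 880 and 1032 TPM) and the RNA binding IGF2BP3 (56.4, 52.6 and 70.3 TPM). None of the 24 members with 5 TPM was over 2-fold apart in library c. With 3.95% called over all such genes, this does not set the list apart.

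Of 30 genes of intestinal epithelium 14 were expressed (46.7%, against 56.5% of all genes), and the median TPM of the list was 2.15. A few members were high. AGR2, which folds mucins, was listed at 1143, 1117 and 1920 TPM, the adhesion molecule CEACAM6 at 902, 942 and 2042 TPM, and the keratin KRT20 at 929, 954 and 1255 TPM. LGALS4, an intestinal galectin, stood at 499, 460 and 534 TPM, and VIL1, which bundles actin in microvilli, at 143, 104 and 235 TPM. The intestinal master factor CDX2 lay between 2.06 and 2.78 TPM, and CDX1, MUC2, FABP2, SI and ISX were listed at 0.

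Library c was over 2-fold above both others in 8 of 13 intestinal genes with 5 TPM, and below in none, beside 1.94% above and 2.01% below over all genes with 5 TPM. These were CDH17, MUC13, TFF3, CEACAM5, CEACAM6, REG4, CLRN3 and TSPAN8. Of these, TFF3, CEACAM5 and REG4 had 5 TPM or more only in library c, so they entered the count through the library in which they were called. CDH17, a cadherin of the gut, was listed at 78.5, 83.8 and 337 TPM and TSPAN8, a tetraspanin, at 69.2, 75.4 and 255 TPM. The biliary list had 10 of 24 genes expressed (41.7%, beside 56.5% of all genes). In it 5 of 12 with 5 TPM were over 2-fold higher in c: MUC1, TFF1, TFF2, TFF3 and CLDN4. Its member KRT7 went the other way with 14.67, 14.03 and 2.53 TPM. TFF3 stands in both lists, and TFF2 also had 5 TPM or more only in library c. The defining duct genes SCTR and PKHD1 were listed at 0 and CFTR did not exceed 0.156 TPM.

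Of 41 epithelial genes 25 were expressed (61.0%), and of 56 mesenchymal genes 34 (60.7%), both near the 56.5% of all genes listed. E-cadherin, CDH1, was listed at 12.12, 11.97 and 33.74 TPM and N-cadherin, CDH2, at 74.7, 74.7 and 108 TPM. The intermediate filament VIM was low, at 9.24 ± 0.47 TPM, while the matrix protein FN1 stood at 2340, 2444 and 1980 TPM. ZEB1 lay between 8.43 and 9.19 TPM and SNAI2 between 11.6 and 19.3 TPM, while TWIST1 and TWIST2 were listed at 0. The splicing factor ESRP1 and RAB25 were at 0 too, and ESRP2 lay between 19.04 and 22.37 TPM. MMP7, a protease of epithelial tumours, was listed at 273, 306 and 185 TPM, and MMP2 and MMP9 did not pass 1 TPM.

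In library c 4 of 32 mesenchymal genes with 5 TPM were over 2-fold higher and 1 lower. Of 24 epithelial genes with 5 TPM, 5 were over 2-fold higher and 2 lower, beside 1.94% and 2.01% over all genes. Among the higher mesenchymal genes were the laminin chain LAMB3 (61.2, 63.4 and 160 TPM) and the proteoglycan VCAN (23.2, 24.6 and 67.5 TPM). Another was the urokinase receptor PLAUR (17.4, 18.9 and 68.6 TPM). TGFBI was over 2-fold lower, with 93.7, 96.4 and 31.2 TPM. Of the junction genes, CLDN4 stood at 203, 185 and 535 TPM and CLDN7 at 67.5, 64.1 and 4.26 TPM. Both are claudins, the seals of tight junctions, and they differed in opposite directions. DSP, a desmosomal plaque protein, was listed at 87.1, 92.6 and 212 TPM. The matriptase inhibitors SPINT1 (14.53, 11.98 and 38.14 TPM) and SPINT2 (4.55, 5.87 and 23.8 TPM) were over 2-fold higher in c as well.

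Receptors other than MET were more modest, and 32 of 48 growth factor genes were expressed (66.7%, beside 56.5% of all genes). EGFR was listed at 52.3, 52.6 and 88.4 TPM and FGFR4, the liver receptor of FGF19, at 48.7, 42.1 and 24.2 TPM. The EGFR ligand AREG stood at 87.9, 77.8 and 146 TPM, EREG at 48.3, 51.4 and 143 TPM and TGFA at 10.2, 7.67 and 37.0 TPM. These 3 ligands were highest in c. Of the other EGFR ligands in the list, BTC (19.3, 19.3 and 18.4 TPM) and HBEGF (2.12, 1.77 and 2.46 TPM) differed little. KDR, a receptor of VEGF, stood at 11.9, 11.2 and 1.36 TPM, and PDGFA at 13.5, 12.3 and 38.4 TPM. PDGFC (5.51, 6.56 and 0.929 TPM) and TGFB2 (42.6, 43.9 and 17.8 TPM) were lower in c. Of 30 members with 5 TPM, 3 were over 2-fold higher in c and 3 lower, beside 1.94% and 2.01% over all genes. FGF19, IGF1, FLT1, VEGFC and PDGFRA were listed at 0. Of Wnt targets and zonation genes 13 of 26 were expressed, with AXIN2, a feedback target of beta-catenin, at 36.2, 37.7 and 64.4 TPM, GLUL at 135, 141 and 90.2 TPM and LEF1 at or near 0.

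All 41 proliferation genes were expressed, beside 56.5% of all genes. MKI67 was listed at 68.8, 71.0 and 61.4 TPM, PCNA at 490, 508 and 366 TPM and the helicase subunit MCM7 at 700, 708 and 467 TPM. Library c was lowest in 31 of the 40 members with 5 TPM, beside 5399 of all 10434 such genes. Only STMN1 (234, 245 and 93.7 TPM) passed 2-fold, and 1 of 40 (2.5%) is near the 2.01% called lower over all genes. The checkpoint gene CDKN2A (78.4, 69.5 and 54.1 TPM) was expressed.

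Stress genes were expressed in 36 of 40 cases (90.0%, beside 56.5% of all genes). In library c 8 of the 36 members with 5 TPM were over 2-fold lower and none higher, beside 2.01% and 1.94% over all genes. Of these, DDIT4, TRIB3, ASNS, PSAT1, PHGDH and CHAC1 are known targets of the amino acid response factor ATF4, and MT1X and MT2A are metallothioneins. TRIB3 was listed at 472, 447 and 208 TPM, PSAT1 at 304, 317 and 124 TPM and PHGDH at 68.4, 64.8 and 14.8 TPM. ATF4 itself stood at 482, 485 and 257 TPM. Other stress genes of the list did not all follow. DDIT3 and SESN2 were lower in c but did not pass 2-fold. ATF3 (37.5, 37.3 and 39.5 TPM), STC2 (54.2, 49.0 and 55.4 TPM) and GDF15 (190, 167 and 202 TPM) were not lower there. Of the 36 members, library c was lowest in 18 and highest in 12. MT2A, which binds zinc, was listed at 77.7, 66.7 and 18.2 TPM.

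Inflammatory genes were expressed in 19 of 37 cases (51.4%), near the 56.5% of all genes. In c 7 of 19 members with 5 TPM were over 2-fold lower with none higher, beside 2.01% and 1.94% over all genes. LCN2, a siderophore binding protein, was listed at 102, 105 and 1.80 TPM. The chemokine CXCL5 stood at 77.3, 83.8 and 14.9 TPM and BIRC3, a target of NF-kappa-B, at 40.0, 39.9 and 8.13 TPM. The others were CXCL2, CXCL8, CCL20 and CSF1. Antigen presentation and interferon genes were expressed in 25 of 35 cases (71.4%, beside 56.5% of all genes). B2M was listed at 1119, 1114 and 1288 TPM. HLA-DRA and HLA-DRB1 were listed at 0. ISG15 (70.3, 57.4 and 97.4 TPM) and OAS1 (135, 132 and 365 TPM) were expressed. HHLA2, a checkpoint ligand of the B7 family, was listed at 4.90, 5.75 and 25.4 TPM, and CD274, which encodes PD-L1, did not exceed 0.342 TPM.

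Cancer-testis genes were rare, with 7 of 39 expressed (17.9%, beside 56.5% of all genes). SSX1 was listed at 180, 193 and 123 TPM and MAGEA3 at 76.3, 77.4 and 77.3 TPM, while PRAME, CTAG1B and MAGEA4 were listed at 0. Members of these families are near copies of one another, so the split of reads between them is uncertain. SPANXA1 was over 2-fold higher in library b, with 2.89, 13.2 and 2.64 TPM.

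Markers of other cell types were mostly absent, and each share expressed lay below the 56.5% of all genes. Of leukocyte markers 3 of 25 were expressed: CD68, LYZ and CORO1A. PTPRC, the common leukocyte antigen, lay between 0.158 and 0.239 TPM, with CD2, CD4, MS4A1 and TYROBP at 0. The summed level of this list was 104 TPM in a, 102 in b and 159 in c, of which CD68, a lysosomal gene, made 87.1, 88.8 and 152. Of endothelial markers 5 of 17 were expressed: ESAM, PECAM1, KDR, EGFL7 and LYVE1. PECAM1 was listed at 18.04, 16.42 and 8.40 TPM, while CDH5, TIE1, ERG and PLVAP were at 0. The endothelial sums were 107, 99.9 and 157 TPM, most of it ESAM with 69.6, 65.0 and 141 TPM. Of fibroblast markers 4 of 18 were expressed: LUM, DCN, TAGLN and COL6A3. DCN was listed at 20.56, 20.67 and 27.02 TPM, TAGLN at 18.90, 16.62 and 14.01 TPM and COL6A3 at 11.84, 14.07 and 26.14 TPM. COL1A1 did not exceed 0.196 TPM, and PDGFRA, FAP, POSTN, THY1 and DES were at 0. The fibroblast sums were 81.5, 83.9 and 275 TPM, where LUM, a matrix proteoglycan, made 27.3, 28.8 and 206 TPM. Each of these sums was highest in library c, and their part in its differences was not tested. Of markers of further lineages 4 of 33 were expressed (12.1%), TUBB3, MBP, PAX8 and GATA3. The hepatocyte label itself was met by HNF4A and partly by the plasma proteins, with APOA1 under the limit in all 3 libraries and TTR in 2 of them.

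**Figure D4:**
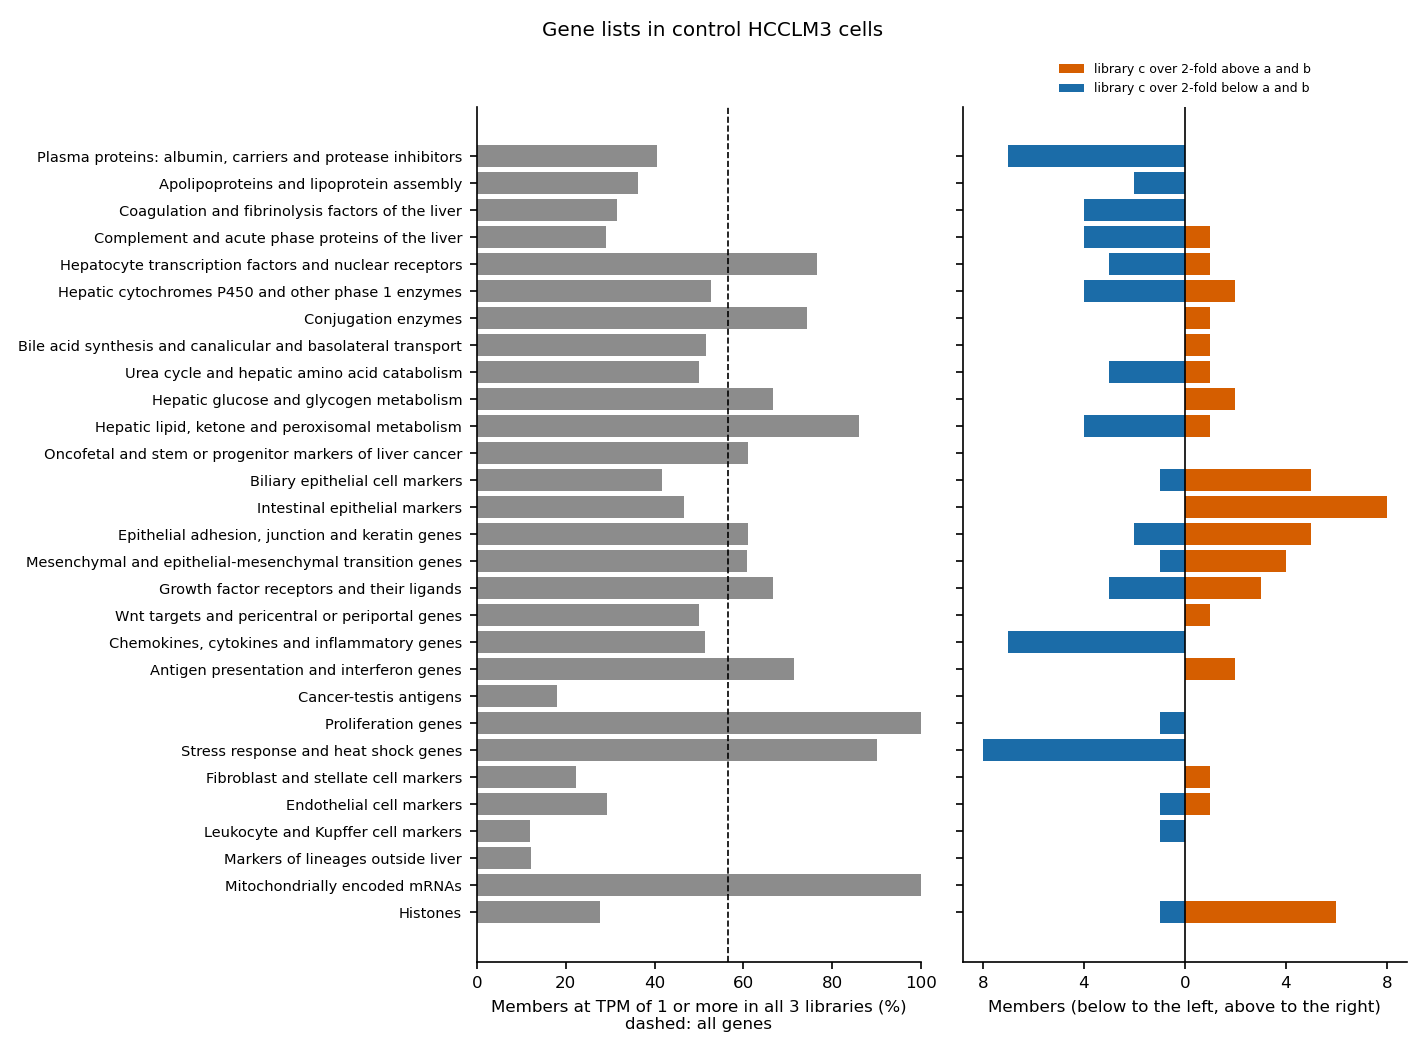
For each of the 29 gene lists, the percent of matched members at a TPM of 1 or more in all 3 control libraries (left, dashed line at 56.5% for all genes) and the number of members in which library c was over 2-fold above or below both others (right). Plasma protein, inflammatory and stress genes extend to the left in the right panel, and intestinal and biliary genes to the right.

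Libraries a and b were close to each other, and c stood apart from both. Over the 10434 genes with 5 TPM or more in at least 1 control library, the median absolute difference was 0.09 on the log2(TPM + 1) scale between a and b, 0.23 between a and c and 0.20 between b and c. Between a and b 15 genes differed by more than 2-fold, against 506 between a and c and 472 between b and c. Library a was over 2-fold from both others in 7 genes (0.0671%), library b in 6 (0.0575%) and library c in 412 (3.95%), 202 above and 210 below. Past 4-fold, c had 34 genes above and 53 below (0.834%), a had 2 genes and b had 1. Of these, 34 of 34 and 52 of 53 also lay outside the range of all 8 other libraries of the series. With 1 library on one side there is no test of what sets c apart.

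The 10 genes furthest above in c were led by TFF1, a mucosal trefoil peptide, with 5.84, 7.80 and 105 TPM. It was followed by ZBED2, CEACAM5, UPK1B, AZGP1, LUM, MOGAT3, SDCBP2, COL17A1 and KCNK6. CEACAM5, the carcinoembryonic antigen, was listed at 4.97, 4.73 and 50.7 TPM, UPK1B, a urothelial membrane protein, at 20.9, 22.2 and 188 TPM, and AZGP1, a lipid mobilising glycoprotein, at 5.45, 4.44 and 50.9 TPM. COL17A1, a collagen of hemidesmosomes, was listed at 13.5, 12.4 and 85.7 TPM. In the 6 knockdown libraries CEACAM5 lay between 3.02 and 4.63 TPM and LUM between 24.0 and 31.5 TPM.

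The 10 furthest below in c were ADH1C, LCN2, FGG, PGC, TF, SCNN1A, CLDN7, ABCA4, TGM2 and FGB. PGC, a gastric pepsinogen, was listed at 21.4, 21.9 and 0 TPM, and SCNN1A, a subunit of the epithelial sodium channel, at 50.5, 48.0 and 2.88 TPM. TGM2, which cross-links proteins, was the most abundant of them, with 298, 301 and 27.1 TPM, and the 6 knockdown libraries lay between 257 and 295 TPM. The retinal transporter gene ABCA4 stood at 71.6, 69.2 and 4.75 TPM. There were 4 genes with 10 TPM or more in a and b and under 1 in c (ADH1C, FGG, PGC and TRIM31), and none in the opposite direction.

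ID3, an inhibitor of DNA binding by other factors, was listed at 299, 271 and 46.9 TPM, over 2-fold lower in c. It was picked here after its values were seen, from among the 30 most abundant genes of the transcription factor families. HAMP, the hormone that controls iron, stood at 3.41, 7.29 and 0.830 TPM.

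Some RNA classes also differed in library c. Replication-dependent histone mRNAs mostly lack a poly(A) tail. Of 11 histone genes with 5 TPM, 6 were over 2-fold higher in c and 1 lower, beside 1.94% and 2.01% of all such genes. Some of the higher ones had 5 TPM or more only in library c. H2BC12 was listed at 37.1, 36.0 and 87.5 TPM and H1-2 at 12.6, 15.2 and 36.6 TPM. H2AC18 was listed at 3.44, 22.1 and 47.2 TPM and its near copy H2AC19 at 45.6, 23.8 and 16.3 TPM, so the split between these 2 differed between all libraries. Median differences of c from the mean of a and b were 0.26 for the mitochondrially encoded mRNAs and -0.25 for the cytosolic ribosomal proteins. By chromosome the medians ran from -0.17 on chromosome 19 to 0.07 on chromosome 13, over chromosomes 1 to 22 and X. The part of these features in the difference of library c was not tested.

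**Figure D5:**
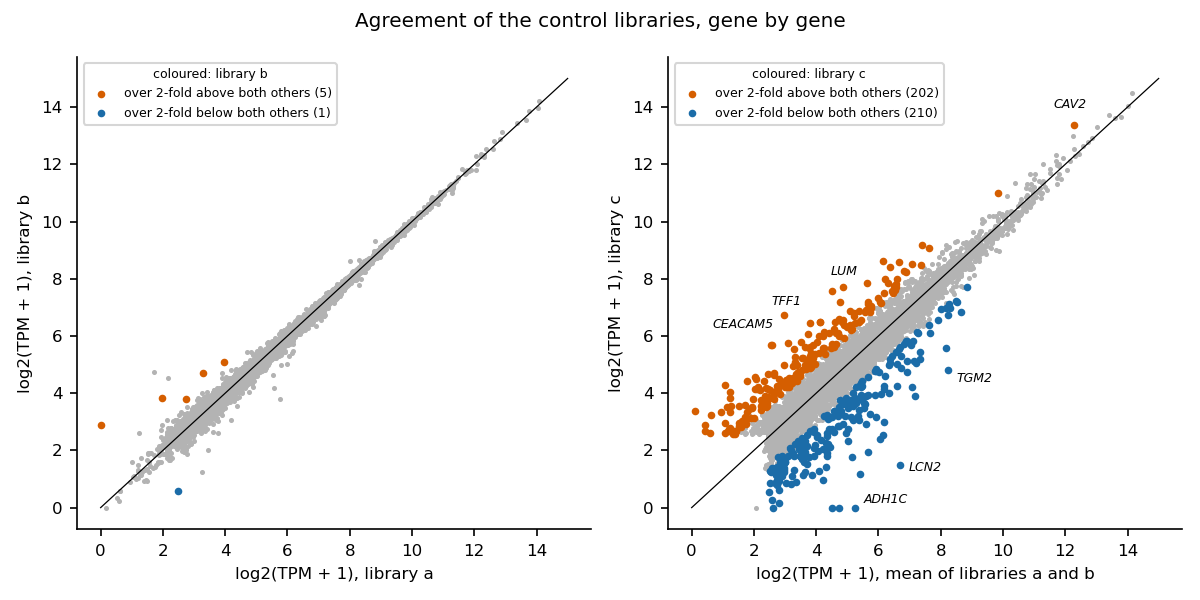
Levels as log2(TPM + 1) of 10434 genes, library b against a (left) and library c against the mean of a and b (right), with the line of equal values. Coloured points are over 2-fold above or below both other control libraries: 5 and 1 genes for b, 202 and 210 for c.

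Libraries a and b had few genes of their own. EXOG, a mitochondrial nuclease, was over 2-fold higher in a with 52.7, 12.9 and 11.6 TPM, and NCBP3, a cap binding protein, with 46.9, 17.3 and 17.9 TPM. EXOG reached 56.7 TPM in 1 of the knockdown libraries and 9.05 TPM in another, so its level varied over the series. In b, MAP3K4, a stress kinase, was listed at 8.83, 25.4 and 7.30 TPM and CRAMP1 at 14.52, 33.44 and 13.97 TPM. MAP3K4 lay between 5.85 and 30.5 TPM in the knockdown libraries.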

How the data were processed

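Poly(A) RNA of 9 HCCLM3 libraries was sequenced, and the 3 libraries of the control siRNA were described. TPM values per gene were deposited by the authors in 1 table of 20379 genes. The tools named in the submitters' processing notes are fastp, HISAT2, Bowtie2 and edgeR, with hg38 as the build. For roles, versions, annotation and strand setting, the sources used here give nothing. Without strand, reads of overlapping genes cannot be told apart. Another 9 columns of per-sample values were not used. TPM keeps no depth, so depth per library is unknown here and no counting interval is given.

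Expressed means a TPM of 1 or more in all 3 control libraries. A library was called apart where log2(TPM + 1) lay over 1 (2-fold) or 2 (4-fold) above or below both other controls, among genes with 5 TPM or more in at least 1 control. This calling was checked on simulated TPM values with planted changes in 1 library. A gene could pass the 5 TPM limit through 1 library alone, also through the library in which it was then called higher. Differences of medians are log2(TPM + 1) of library c minus that of the mean of a and b, and this scale understates the change of low genes. No statistical test was run, since the description covers 1 group.

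Named genes are the 30 highest by mean TPM, the 4 highest members of each list described, first-named members under 1 TPM, members over 2-fold apart, and the 10 genes furthest above and below in each library with 10 TPM or more. Some genes that the rule takes are not reported here. Other members were named as examples after their values were seen. Of the 29 lists, members not matched by symbol were not analysed here. The members and lists were chosen with earlier results of these data known. Gene families were taken by symbol stem after the data were seen. Positions come from GENCODE 29, in which 20128 identifiers were found, and promoters from RefSeq. Python 3.11.15, pandas 2.3.3 and matplotlib 3.10.9 were used.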

Additional observations from a re-analysis of the deposited data

How the results depend on the processing

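The counts of expressed genes, of hepatocyte metabolism genes and of hepatocyte transcription factors stayed within 1.5 times under every alternative run, and expressed genes lay between 9743 and 12029. Plasma protein genes expressed were 20 at a TPM limit of 5. The 100 most abundant genes held 26.3% with the mitochondrially encoded genes left out and TPM rescaled, against 31.1%.

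Genes over 4-fold in library c were 55 at a TPM limit of 20 instead of 87, and those over 2-fold were 244 instead of 412. Against all 8 other libraries they were 63 and 308. For library b the 4-fold count of 1 became 3 with a pseudocount of 0.1, and 0 at a TPM limit of 20 or against all 8 other libraries. Its 2-fold count of 6 became 10 with that pseudocount or at a TPM limit of 1, and 2 at a limit of 20 or against all 8 others. For library a the 2-fold count of 7 became 12 at a limit of 1, 4 at a limit of 20 and 2 against all 8 others. These limits change which genes enter.

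Leaving out 1 control library, an alternative chosen after seeing the data for these counts, left 1 reference. Counts for a over 4-fold were then 4 without c and 104 without b, and over 2-fold 15 and 506. For b they were 4 without c and 101 without a, and over 2-fold 15 and 472. For c they were 101 and 104, and 472 and 506. So a and b count as apart mainly where c is the only reference.

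Count-based alternatives were not run, since the count columns were not used. No paired analysis was possible because the columns carry letters and no test was run. TPM holds no depth, so low values have no counting error here.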
